A study of Mus musculus with 7 samples.

Results

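Synaptic vesicle and active zone genes encode the machinery with which an axon terminal releases transmitter. The 35 genes examined here were taken as a list of presynaptic genes, and each was found once among the 52636 genes of the count files through its Ensembl identifier and GENCODE symbol. They were divided by role into 12 genes of the SNARE complex, its calcium sensors and its regulators, 13 genes of vesicle membrane and vesicle-bound proteins, 8 active zone genes and 2 genes of vesicle endocytosis. The comparison of interest was that of the short SNARE and vesicle genes with the long active zone genes. All 35 passed the filter on low counts, as did 21817 genes in all, and the lowest count of any of the 35 in any library was 328 (*Syn3*).

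The libraries came from the dorsal midbrain, the region of the superior colliculus and periaqueductal gray, of 3 control and 4 *Brn3b* cKO mice. Control mice (*Brn3b* flox/+ :: *En1-Cre*, labelled heterozygote) carried 1 conditional and 1 wild-type allele of the transcription factor gene *Brn3b* (*Pou4f2*), and cKO mice (*Brn3b* flox/- :: *En1-Cre*, labelled homozygote) carried 1 conditional and 1 null allele. All mice of either genotype carried 1 copy of *En1-Cre*, which drives recombination in the developing midbrain and anterior hindbrain, and 1 conditional allele that expresses an alkaline phosphatase reporter after recombination. The null allele of the cKO mice was present in every cell, not only in the midbrain, and no group without Cre was analysed here. Each library was made from 1 mouse. Control A2 and A6 were taken at postnatal day 4 (P4) and control A4 at P3, whereas the cKO libraries B1 and B8 came from P4 mice and B7 and B9 from P2 mice. Since P2 occurred only among cKO mice, its effect and that of genotype cannot be told apart in B7 and B9.

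At the terminal, vesicles filled with transmitter dock at the active zone, where a scaffold of very large proteins holds them close to calcium channels. SNARE proteins on the vesicle and on the plasma membrane then zip together, and synaptotagmins trigger fusion when calcium enters. Synapsins and Rab3 proteins act on the vesicle pool before fusion, and dynamin and amphiphysin retrieve the membrane afterwards. In the mouse superior colliculus, a target of retinal and cortical axons, such terminals mature over the first postnatal weeks. The cell bodies of incoming retinal axons lie outside the dissected tissue.

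The libraries held 23588248 to 87572085 counts on genes. The P2 cKO libraries were the deepest, with 67792192 in B7 and 87572085 in B9, against at most 40411968 in the others. They also had the smallest share of read pairs assigned to no gene (31.8% and 31.0%, against 33.1% to 38.2%). *Pou4f2* was at 45.8 to 47.4 CPM (counts per 1e6 of the normalized library size) in controls and 9.65 to 11.6 CPM in cKO mice, with no overlap. Library B8, a P4 cKO mouse, stood apart from the other cKO libraries: on the first principal component over all genes (60.1% of the variance) it lay at -42.2, among the controls (-81.2 to -33.3), whereas B1, B7 and B9 lay at 49.4 to 78.7. Its *Pou4f2* level of 10.6 CPM was that of a cKO library. Values without B8 are therefore given beside the main results below. Leaving out a library that lies with the controls enlarges the contrast by construction, so values without it describe B1, B7 and B9 and are not separate evidence. With edgeR on all 7 libraries, 1 gene was called at an adjusted p under 0.05 (*Pou4f2*), which is 0.00458% of the genes tested. At an unadjusted p under 0.05 the share was 30.4%.

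None of the 35 presynaptic genes was called with edgeR's quasi-likelihood test on all 7 libraries. At an unadjusted p under 0.05 there were 19 of 35, 9 with a higher and 10 with a lower level in the cKO group, against the 30.4% of all genes. This count rested on single libraries. It was 4 of 35 without A4 (4 higher and 0 lower), near the 10.8% of all genes in that comparison, and 6 without B7 against 15.5%. It was 11 without A2 (21.9%), 11 without A6 (19.0%), 8 without B1 (17.9%), 10 without B9 (16.2%) and 28 without B8 (53.6%). The fitted log2 fold changes (cKO against control) divided by role. The median was -0.28 over the 25 SNARE and vesicle genes and 0.58 over the 8 active zone genes, against 0.00 over all genes tested. Without B8 they were -0.35 and 0.73. Active zone genes lay above 0 in 8 of 8 cases and SNARE and vesicle genes below 0 in 17 of 25. DESeq2 on the same libraries called 4 of the 35, all higher in cKO mice (*Syn3*, *Rims2*, *Bsn* and *Erc2*), where it called 7.41% of all genes higher and 3.04% lower. Without B8, edgeR called 26 of the 35, 12 higher and 14 lower, against 23.7% of all genes called higher and 23.1% called lower. In that comparison 8 of 8 active zone genes rose and 14 of 25 SNARE and vesicle genes fell, while 4 of the 25 rose.

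**Figure D1:**
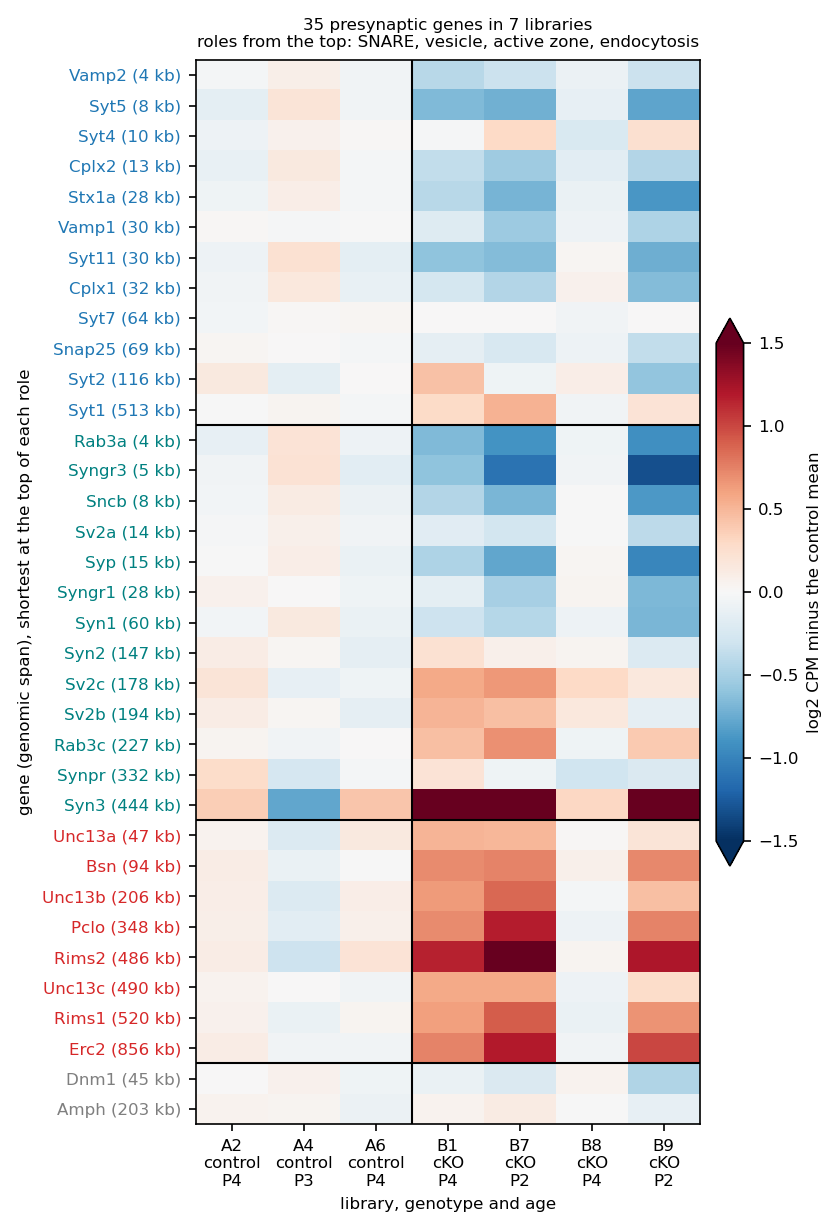
Heat map of log2 CPM minus the control mean for the 35 genes (rows, by role and genomic span in kb, shortest first) in the 7 libraries (columns, with genotype and age). The color scale is capped at -1.5 and 1.5. In B1, B7 and B9 the short SNARE and vesicle genes other than *Syt4* are blue and active zone genes red, and B8 resembles the controls.

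In the values that follow, levels are CPM on normalized library sizes, controls are listed in the order A2, A4 and A6, cKO libraries in the order B1, B7, B8 and B9, and spans are those of the gene from its start to its end, introns included. Because this is bulk tissue, fewer cells of a type and less RNA per cell cannot be told apart.

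The core SNARE genes had lower levels in the cKO libraries. *Vamp2*, the main synaptobrevin of vesicles (span 3.9 kb), was at 706, 771 and 696 CPM in controls and 542, 581, 683 and 580.4 CPM in cKO mice. *Stx1a*, a syntaxin of the plasma membrane (27.6 kb), was at 168, 188 and 173 CPM against 132, 109, 164 and 96.3 CPM. For these genes every cKO library, B8 included, lay below every control. *Snap25*, which supplies the other plasma membrane helices of the complex (69.0 kb), was at 496, 489.8 and 477 CPM in controls and 444, 413, 463 and 378 CPM in cKO mice. *Vamp1*, another synaptobrevin, enriched in brainstem and spinal circuits (30.4 kb), was at 98.4, 96.0 and 96.4 CPM against 84.6, 66.6, 91.7 and 70.2 CPM. Here too the groups did not overlap. The log2 fold changes of the 4 genes were -0.28 ± 0.12 (SE) for *Vamp2*, -0.50 ± 0.18 for *Stx1a*, -0.20 ± 0.12 for *Snap25* and -0.31 ± 0.14 for *Vamp1*, with edgeR adjusted p from 0.138 to 0.254. Without B8 they were -0.35 for *Vamp2*, -0.66 for *Stx1a*, -0.25 for *Snap25* and -0.40 for *Vamp1*, and all but *Snap25* passed (edgeR adjusted p from 0.00116 to 0.0131, and 0.0606 for *Snap25*).

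Complexins bind the assembled SNARE complex and regulate fusion. *Cplx2* (12.6 kb) was at 505, 602 and 533 CPM in controls and 424, 377, 491 and 401 CPM in cKO mice, again without overlap. Its span is that of GENCODE. Its start in another annotation, RefSeq, lies farther from the GENCODE start than these 12.6 kb, so the span of *Cplx2* is uncertain. *Cplx1* (31.5 kb) was at 106, 122 and 102 CPM against 91.6, 80.7, 115 and 69.6 CPM, where B8 lay inside the control range. The fold change of *Cplx2* was -0.37 ± 0.13 (SE; edgeR adjusted p = 0.138) and that of *Cplx1* -0.30 ± 0.18 (edgeR adjusted p = 0.253). Without B8 they were -0.45 for each, and each fell (edgeR adjusted p = 0.00404 for *Cplx2* and 0.0106 for *Cplx1*).

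Over all 35 genes, the cKO libraries lay wholly below the controls in 5 (*Vamp2*, *Stx1a*, *Snap25*, *Vamp1* and *Cplx2*) and wholly above them in 0. Of all genes tested, 8.01% were lower and 6.03% higher without overlap. Without B8 the counts were 16 lower and 11 higher, the latter with all 8 active zone genes, where 28.0% of all genes were lower and 28.2% higher. The 5 genes found with all libraries belong to the SNARE class, and their B8 levels were the highest of the 4 cKO libraries in each case.

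Synaptotagmins are vesicle proteins, many of which bind calcium, and they did not move as a group. *Syt1*, the fast calcium sensor of most forebrain synapses, spans 513.3 kb and was at 370.4, 381 and 363 CPM in controls and 454, 534, 357 and 427 CPM in cKO mice. *Syt2*, the fast sensor of many brainstem synapses (115.9 kb), was at 48.6, 39.5 and 43.8 CPM against 59.4, 41.8, 47.1 and 29.0 CPM. Thus B1, B7 and B9 lay above the controls for *Syt1*, whereas for *Syt2* B1 lay above, B9 below and B7 inside the control range. *Syt5*, a calcium-binding synaptotagmin (7.8 kb), was at 89.9, 113 and 95.9 CPM in controls and 62.8, 60.2, 90.9 and 57.2 CPM in cKO mice. *Syt4*, a synaptotagmin of dense-core vesicles that lacks part of the usual calcium coordination (9.6 kb), was at 372, 411 and 398 CPM against 390.1, 484, 336 and 467 CPM. *Syt4* was the 1 of the 14 short SNARE and vesicle genes above 0, with a log2 fold change of 0.09 ± 0.15 (SE; edgeR adjusted p = 0.693), and it did not pass without B8 either (0.18, edgeR adjusted p = 0.199). *Syt1* had a log2 fold change of 0.25 ± 0.15 (edgeR adjusted p = 0.251) and rose without B8 (0.34, edgeR adjusted p = 0.021), *Syt5* had -0.56 ± 0.18 (edgeR adjusted p = 0.138) and fell without B8 (-0.73, edgeR adjusted p = 0.000337), and *Syt2* was at 0.01 ± 0.22. *Syt11*, a synaptotagmin that does not bind calcium, was at 563 to 728 CPM in controls and 374 to 635 CPM in cKO mice, with B8 highest, and fell without B8 (-0.68, edgeR adjusted p = 0.000582). *Syt7*, a slow high-affinity sensor, had the fitted value nearest 0 of the 35 (-0.01) and was at 331 to 346 CPM in controls and 328 to 342 CPM in cKO mice.

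The lowest fold changes of the list were those of 2 short vesicle genes, *Syngr3* and *Rab3a*, followed by *Syt5*. *Syngr3*, a synaptogyrin (ENSMUSG00000007021.4, chr17:24685092-24689955, 4.9 kb), was at 258, 311 and 239 CPM in controls and 176, 124, 259 and 107 CPM in cKO mice. *Rab3a*, the main Rab GTPase of synaptic vesicles (ENSMUSG00000031840.12, chr8:70754679-70758677, 4.0 kb), was at 403, 504 and 416 CPM against 277, 236, 421 and 231 CPM. *Syp*, synaptophysin, the most used marker of synaptic vesicles (14.8 kb), was at 650.3, 700.2 and 611 CPM against 472, 379, 669 and 330.0 CPM. For all 3 genes B1, B7 and B9 lay below every control and B8 lay within the control range, so the groups overlapped through B8 alone. The log2 fold changes were -0.69 ± 0.27 (SE; edgeR adjusted p = 0.142) for *Syngr3*, -0.60 ± 0.21 (edgeR adjusted p = 0.138) for *Rab3a* and -0.50 ± 0.22 (edgeR adjusted p = 0.161) for *Syp*. Without B8 they were -0.99, -0.83 and -0.73, and all 3 fell (edgeR adjusted p = 0.000553, 0.000203 and 0.000758). *Sncb* (beta-synuclein), *Sv2a* and *Syngr1*, the other short vesicle genes, had log2 fold changes of -0.46, -0.20 and -0.29, and fell when B8 was left out (edgeR adjusted p = 0.00104, 0.0385 and 0.018).

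To show the promoters of the genes that lay at the ends of the list, the 250 bases upstream of the RefSeq start were read for the 2 lowest SNARE and vesicle genes and the 2 highest active zone genes that had such a window (27 of the 35 did). They are from RefSeq on GRCm38.p6, 5′ to 3′, with every CpG dinucleotide in capitals.
Rab3a, chr8:70754453-70754702, plus strand: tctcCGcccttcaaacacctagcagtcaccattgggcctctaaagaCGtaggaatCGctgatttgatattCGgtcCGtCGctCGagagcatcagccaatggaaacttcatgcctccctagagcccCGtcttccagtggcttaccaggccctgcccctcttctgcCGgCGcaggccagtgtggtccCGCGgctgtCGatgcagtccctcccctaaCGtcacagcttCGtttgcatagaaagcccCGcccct
Syp, chrX:7638330-7638579, plus strand: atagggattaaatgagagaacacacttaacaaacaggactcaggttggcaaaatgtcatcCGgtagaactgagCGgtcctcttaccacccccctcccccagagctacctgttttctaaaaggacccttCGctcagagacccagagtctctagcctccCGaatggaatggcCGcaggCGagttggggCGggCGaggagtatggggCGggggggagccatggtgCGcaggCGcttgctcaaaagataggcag
Pclo, chr5:14514668-14514917, plus strand: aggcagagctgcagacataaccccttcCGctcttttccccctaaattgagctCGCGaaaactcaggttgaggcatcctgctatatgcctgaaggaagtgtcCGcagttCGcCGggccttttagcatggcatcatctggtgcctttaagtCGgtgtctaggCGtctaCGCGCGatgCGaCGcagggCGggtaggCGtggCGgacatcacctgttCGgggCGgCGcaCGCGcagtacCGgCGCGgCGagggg
Erc2, chr14:27622157-27622406, plus strand: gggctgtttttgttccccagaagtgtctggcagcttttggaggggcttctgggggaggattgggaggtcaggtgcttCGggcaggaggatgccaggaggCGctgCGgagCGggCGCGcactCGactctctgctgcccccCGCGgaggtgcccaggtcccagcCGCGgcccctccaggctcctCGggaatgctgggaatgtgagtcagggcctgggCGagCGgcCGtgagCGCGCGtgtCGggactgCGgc

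These windows held 16 CpG (*Rab3a*), 11 (*Syp*), 25 (*Pclo*) and 20 (*Erc2*). The median was 12 over the 18 SNARE and vesicle genes with a window and 19 over the 7 active zone genes, against 6 over all 32851 RefSeq promoter windows, so the median of either class was above that of all windows. Short motifs were searched on both strands, and none of them contains another. The GC box GGGCGG was present in 15 of 18 SNARE and vesicle windows and 5 of 7 active zone windows, against 32.7% of all windows. TATAAA was found in 1 of the 27 (*Sv2b*) against 12.4% of all windows, and TGACG, the core of a cyclic AMP response element, in 6 of 27 against 17.8%. ATTAAT, an AT-rich core that POU-domain factors of the Brn3 family bind, was found in 0 of 27 against 4.39% of all windows. A match or its absence in so short a window describes the letters only.

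Every active zone gene had a higher fitted level in cKO mice. *Bsn*, which encodes the scaffold Bassoon (94.4 kb), was at 161, 139.8 and 149 CPM in controls and 246, 252, 158 and 247 CPM in cKO mice. *Pclo*, which encodes its relative Piccolo (348.5 kb), was at 261, 219 and 258 CPM against 399.8, 557, 234 and 412 CPM. In each case B1, B7 and B9 lay above every control and B8 lay between the lowest and the highest control. The log2 fold change was 0.59 ± 0.18 (SE; edgeR adjusted p = 0.138) for *Bsn* and 0.70 ± 0.25 (edgeR adjusted p = 0.138) for *Pclo*, and both rose without B8 (0.72 for *Bsn* and 0.89 for *Pclo*, edgeR adjusted p = 0.000169 and 0.0003).

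RIM proteins tether calcium channels and vesicles at the active zone, and ERC proteins bind RIM and Bassoon. *Rims1* (519.7 kb) was at 109, 97.2 and 107 CPM in controls and 159, 196, 97.7 and 166 CPM in cKO mice. *Rims2* (ENSMUSG00000037386.15, chr15:39198261-39684372, 486.1 kb) was at 31.2, 23.2 and 33.1 CPM against 64.4, 85.5, 29.5 and 66.8 CPM. *Erc2* (856.1 kb, the longest span of the 35) was at 133, 119 and 119 CPM against 206, 283, 119 and 247 CPM. For all 3 genes B1, B7 and B9 lay above every control, and B8 lay inside the control range. The log2 fold change was 0.57 ± 0.21 (SE; edgeR adjusted p = 0.139) for *Rims1*, 1.08 ± 0.31 (edgeR adjusted p = 0.138) for *Rims2* and 0.79 ± 0.25 (edgeR adjusted p = 0.138) for *Erc2*. DESeq2 called *Rims2* and *Erc2* with all libraries (adjusted p = 0.0236 and 0.0437). Without B8, *Rims1* rose by 0.74, *Rims2* by 1.31 and *Erc2* by 0.99 on the log2 scale (edgeR adjusted p = 0.000294, 9.36e-05 and 0.000115).

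Munc13 proteins prime docked vesicles for release. *Unc13a* (47.3 kb, the only active zone gene in the short class) was at 208, 174 and 222 CPM in controls and 285, 283, 203 and 229 CPM in cKO mice. *Unc13c* (489.5 kb) was at 46.5, 44.9 and 43.3 CPM against 66.3, 66.6, 42.5 and 54.4 CPM. *Unc13b* (205.9 kb) was at 64.9 to 80.2 CPM in controls and 73.2 to 135 CPM in cKO mice. The log2 fold changes were 0.31 for *Unc13a*, 0.51 for *Unc13b* and 0.36 for *Unc13c*, so the short paralog lay close to the long ones, and each rose without B8 (0.40, 0.65 and 0.47, edgeR adjusted p = 0.0203, 0.00169 and 0.00519).

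Long vesicle genes did not follow the short ones. *Syn3* (ENSMUSG00000059602.14, chr10:86055125-86498896, 443.8 kb), the least abundant synapsin, had the highest fold change of the list: it was at 18.2, 8.19 and 18.7 CPM in controls and 50.2, 55.9, 17.5 and 44.0 CPM in cKO mice, a log2 fold change of 1.48 ± 0.41 (SE; edgeR adjusted p = 0.138). *Syn1*, the most abundant synapsin (60.5 kb), was at 392, 448 and 376 CPM against 325, 301, 384 and 251 CPM, a log2 fold change of -0.36 ± 0.16 (edgeR adjusted p = 0.156). The family was therefore spread from below to above 0, with *Syn2* (147.1 kb) at 0.04 between them. Without B8, *Syn3* rose (1.74, edgeR adjusted p = 0.000192) and *Syn1* fell (-0.48, edgeR adjusted p = 0.00631). Exons of *Timp3* overlap those of *Syn3* on the other strand. *Timp3*, an inhibitor of metalloproteinases, was at 29.2, 13.8 and 27.0 CPM in controls and 56.1, 53.0, 34.8 and 66.0 CPM in cKO mice. The strand setting of the counting is not given in the sources used here, so reads of *Syn3* and *Timp3* cannot be told apart with certainty. Exons of *Syn1*, *Syn2*, *Rab3a* and *Unc13a* also overlap those of an antisense protein-coding gene (*Araf*, *Timp4*, *Mpv17l2* and *Colgalt1*), and those of *Syt4*, *Syt7*, *Syp*, *Sv2b*, *Pclo* and *Erc2* overlap other antisense transcripts. *Bsn* shares exon sequence with *Gm47303* on its own strand, which no strand setting would separate. Of the 4 antisense genes named, *Mpv17l2* had the lowest fitted value, -0.91 ± 0.37 (SE; edgeR adjusted p = 0.145).

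Paralogs that differ in span were set side by side as ratios per kb of exon within a library, which do not depend on library size but keep any trend of the library with gene length. The level of *Rab3c* (226.8 kb), a minor vesicle Rab, was 0.265, 0.199 and 0.251 of that of *Rab3a* in controls and 0.511, 0.706, 0.236 and 0.587 of it in cKO mice. The ratio of *Syn3* to *Syn1* was 0.0125, 0.00492 and 0.0134 in controls and 0.0416, 0.05, 0.0123 and 0.0472 in cKO mice. In each pair B1, B7 and B9 had a larger share of the long paralog than any control, and B8 did not. For the SV2 glycoproteins, *Sv2c* (178.0 kb) stood at 0.0506, 0.038 and 0.0431 of *Sv2a* (14.4 kb) in controls and at 0.0729, 0.0827, 0.0539 and 0.0634 of it in cKO mice, so that all cKO libraries, B8 included, were above the controls. *Rab3c* itself was at 543 to 576 CPM in controls and 536 to 899 CPM in cKO mice (log2 fold change 0.39 ± 0.17, SE, edgeR adjusted p = 0.158), and *Sv2b* and *Sv2c* had log2 fold changes of 0.26 and 0.43. Without B8, *Rab3c* (0.51, edgeR adjusted p = 0.00213) and *Sv2c* (0.47, edgeR adjusted p = 0.019) rose and *Sv2b* (0.30, edgeR adjusted p = 0.148) did not pass. Once a trend on GC content, exon length and span was removed from each library, *Rab3c* and *Rab3a* were at -0.24 and -0.34, and *Sv2c* and *Sv2a* at -0.04 and -0.10, so these pairs lay close together, whereas *Syn3* and *Syn1* stayed apart at 0.86 and -0.15. Among the long vesicle genes *Synpr* (331.6 kb), synaptoporin, was the 1 below 0, at -0.09.

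**Figure D2:**
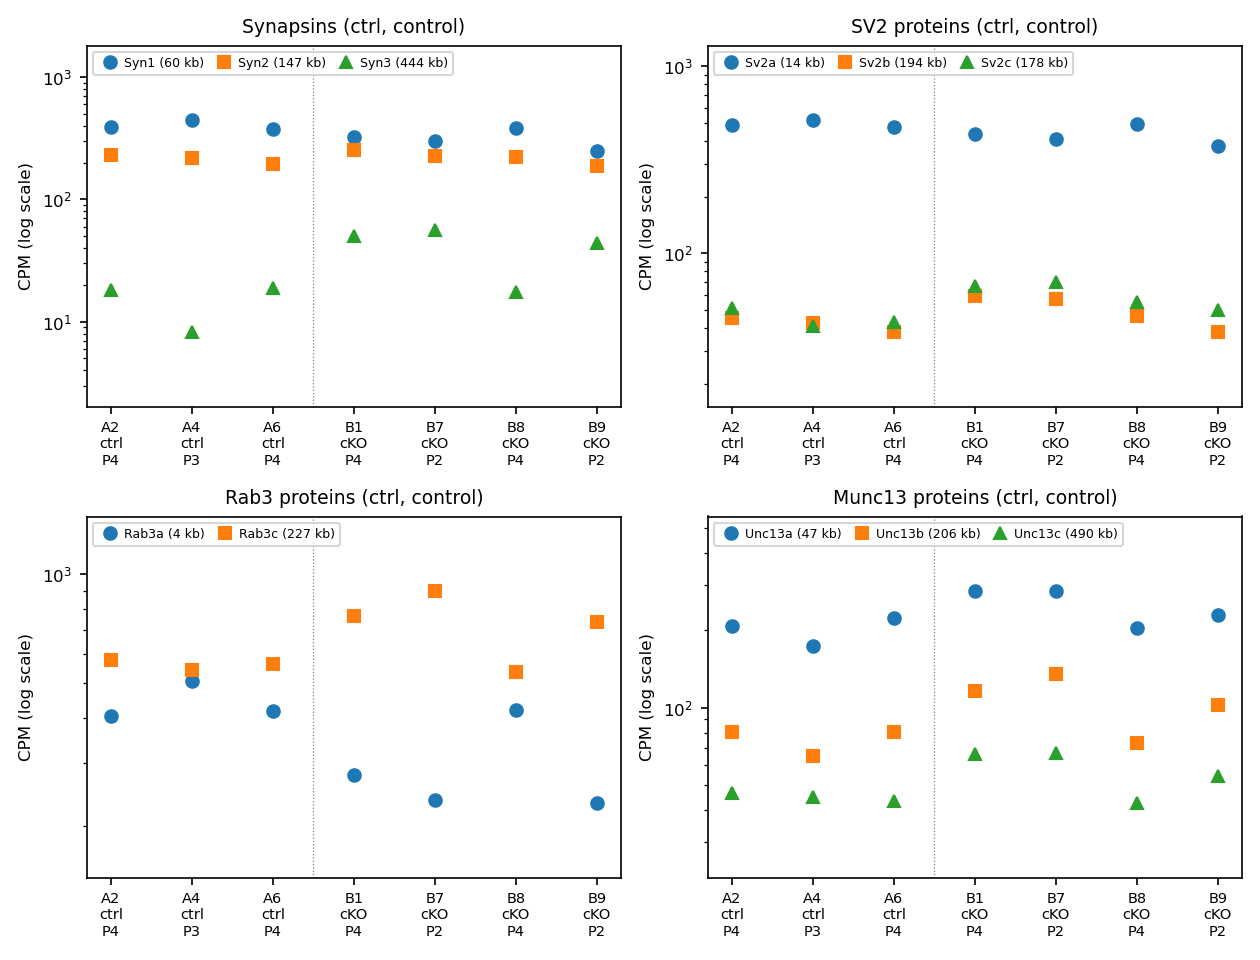
CPM (log scale) of 4 paralog families in each library (points), with the genomic span of each gene in kb in the legend. In B1, B7 and B9 the points of Rab3a and Rab3c move apart and Syn3 lies above its control levels, whereas the 3 Unc13 genes keep their order.

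The endocytosis genes showed little difference with all 7 libraries. *Dnm1*, dynamin, was at 426 to 463 CPM in controls and 325 to 459 CPM in cKO mice, and *Amph*, amphiphysin, at 137 to 150.4 CPM and 133 to 158 CPM. Their log2 fold changes of -0.17 and 0.01 did not pass with or without B8. For *Dnm1*, B1, B7 and B9 (416, 382 and 325 CPM) lay below every control and B8 lay inside the control range. In controls against the P2 cKO mice, edgeR called 1 of the 2 genes lower, where 46.9% of all genes were called.

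Span was then compared with role. Among the 25 SNARE and vesicle genes, the median log2 fold change was -0.42 for the 14 with a span under 50 kb, -0.20 for the 3 from 50 to 100 kb and 0.26 for the 8 from 100 kb. *Cplx2*, whose span is uncertain, was counted among the 14 by its GENCODE span. The 6 long active zone genes had a median of 0.64. Thus long active zone genes lay 1.05 above short SNARE and vesicle genes, but only 0.38 above SNARE and vesicle genes of the same span class. These 2 differences depended on the setting. They were 0.42 and 0.08 in P4 mice only, 0.57 and 0.10 in controls against the P4 cKO mice and 1.53 and 0.61 against the P2 cKO mice. With a trend on GC content, exon length and span removed from each library they were 0.28 and 0.29, so the first was no longer the larger. Without B8 the medians were -0.56, 0.32 and 0.81 for short SNARE and vesicle, long SNARE and vesicle and long active zone genes, with 13 of 14 called lower, 4 of 8 called higher and 6 of 6 called higher. All protein-coding genes showed a difference of the same sign: their median was -0.13 under 50 kb (10920 genes) and 0.38 from 100 kb (2350 genes), a difference of 0.51. Without B8 that difference was 0.67, with 58.3% of long genes called higher and 31.9% of short genes called lower.

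**Figure D3:**
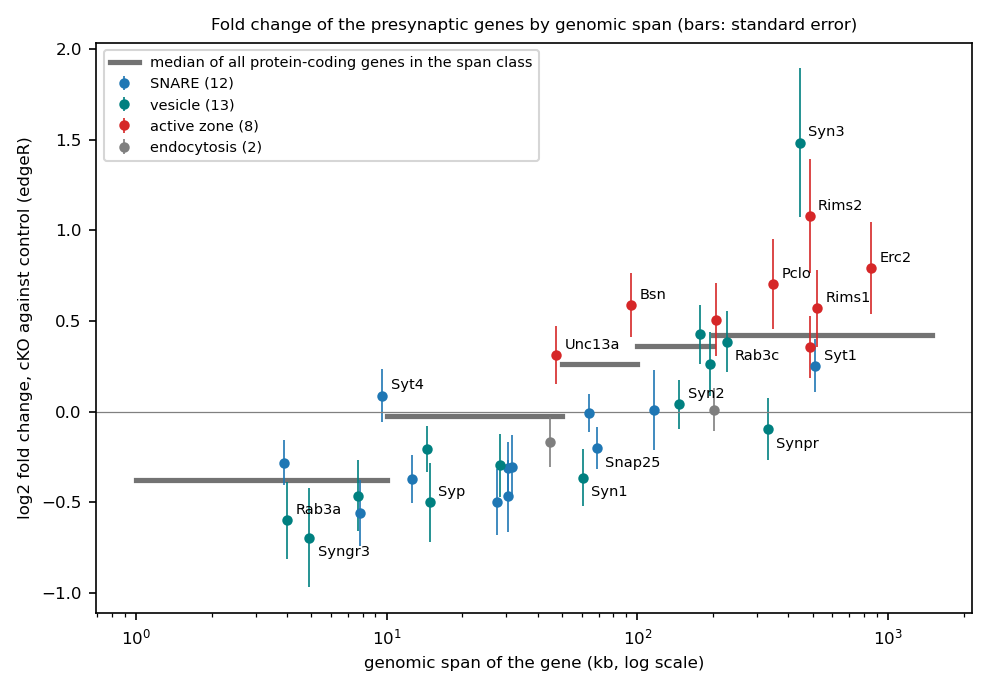
Log2 fold change of each of the 35 genes (points, colored by role, with the standard error) against genomic span in kb on a log axis. Thick gray lines are medians of all protein-coding genes in 5 span classes, from -0.38 under 10 kb to 0.42 from 200 kb. Short vesicle genes lie below the line of their class, and Syn3, Rims2 and Erc2 lie above theirs.

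Across the 35 genes, which are not independent replicates and share the same libraries, the log2 fold change had a Pearson r of 0.796 and a Spearman rho of 0.827 with log10 span. With log10 exon length these were 0.771 and 0.813, and with the GC content of the longest transcript -0.422 and -0.471. Without B8 the values for span were 0.809 and 0.832. Over the 15513 protein-coding genes the values were 0.456 and 0.505 for span and 0.52 and 0.579 for log10 exon length. Presynaptic genes had lower medians than all protein-coding genes in the span classes under 10 kb (-0.51 against -0.38), 10 to 50 kb (-0.31 against -0.02), 50 to 100 kb (-0.10 against 0.26) and 100 to 200 kb (0.15 against 0.36). From 200 kb the 11 presynaptic genes had 0.51 where all 958 had 0.42.

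Within single libraries the pattern was present in 3 of 4 cKO mice. The median of log2 CPM minus the control mean over short SNARE and vesicle genes was -0.42, -0.60 and -0.71 for B1, B7 and B9 in turn, and over long active zone genes it was 0.67, 1.05 and 0.71. Long SNARE and vesicle genes had medians of 0.44 in B1 and 0.49 in B7 but 0.01 in B9, where B8 was at 0.07 and control A2 at 0.13. In B8 the median of short SNARE and vesicle genes was -0.05 and that of long active zone genes -0.06, inside the ranges of the controls (-0.06 to 0.11 and -0.13 to 0.09). Over all protein-coding genes, the medians of long and short genes differed by 0.55, 0.77 and 0.67 in the same 3 libraries, by 0.02 in B8 and by -0.12 to 0.07 in controls. B8 lay within the control range for 22 of the 35 genes, and it was nearer to the control mean than B1, B7 and B9 for 29 of 35.

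**Figure D4:**
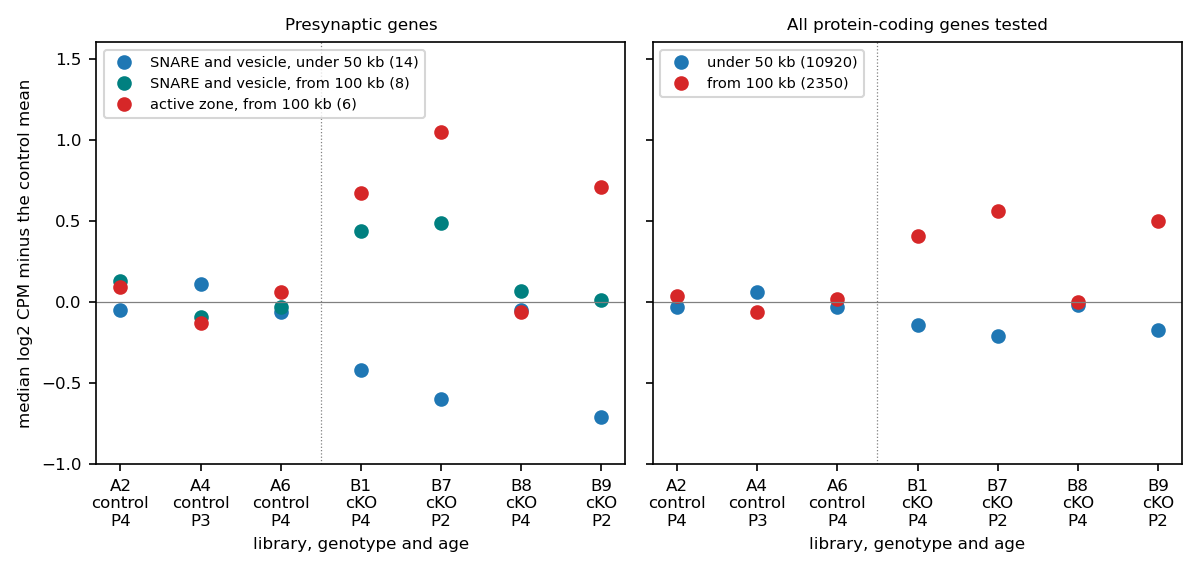
Median log2 CPM minus the control mean in each library for presynaptic genes by role and span (left) and for all protein-coding genes tested by span (right), with the number of genes in the legend. In B1, B7 and B9 long active zone genes and long protein-coding genes lie above 0 and short genes below, long SNARE and vesicle genes lie above 0 in B1 and B7 but at 0.01 in B9, and B8 lies near 0.

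Age moved with the values in the same libraries. Both P2 cKO libraries lay below B1, the P4 library with the pattern, for 12 of the 14 short SNARE and vesicle genes, and above it for 5 of the 8 active zone genes. In controls against the P2 cKO mice, edgeR called 27 of the 35, where 46.9% of all genes were called. With age as a covariate the class medians were -0.17 for SNARE and vesicle genes and 0.47 for active zone genes, and with P4 mice alone (A2, A6, B1 and B8) they were -0.10 and 0.28, with 0 of the 35 at an unadjusted edgeR p under 0.05, where 1.18% of all genes passed. Limma-voom with sample quality weights, which lowers the weight of libraries that deviate from their group, called 27 of the 35 and 48.5% of all genes.

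A smooth trend on GC content, exon length and genomic span was removed from each library to read the members relative to genes of like composition. With all 7 libraries the class medians became -0.21 for SNARE and vesicle genes and 0.12 for active zone genes, and the difference between them fell from 0.86 to 0.33. Without B8, 13 of the 35 were called, 4 higher and 9 lower, against 13.8% of all genes called higher and 18.8% called lower. The 4 that rose relative to the trend were *Syn3* (1.02), *Rims2* (0.71), *Bsn* (0.50) and *Erc2* (0.37). The 9 that fell were *Syp* (-0.94), *Vamp1* (-0.86), *Syt11* (-0.83), *Snap25* (-0.81), *Syngr3* (-0.42), *Rab3a* (-0.41) and *Cplx2* (-0.33), as well as the long vesicle genes *Synpr* (-0.76) and *Rab3c* (-0.29). *Rab3c* was thus called in opposite directions without B8, higher before the trend was removed and lower after. Of the 9, *Synpr* (-0.03 before), *Snap25* (-0.25), *Vamp1* (-0.40), *Syp* (-0.73) and *Syt11* (-0.68) lay further from 0 than before the trend was removed. Of the 8 active zone genes, all called without B8 before, 3 were called after the trend was removed. *Rims1* (0.22), *Unc13a* (0.13), *Pclo* (0.01), *Unc13b* (-0.23) and *Unc13c* (-0.15) were not called. Such a correction also removes any change of expression that itself follows length, and whether one did was not tested.

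**Figure D5:**
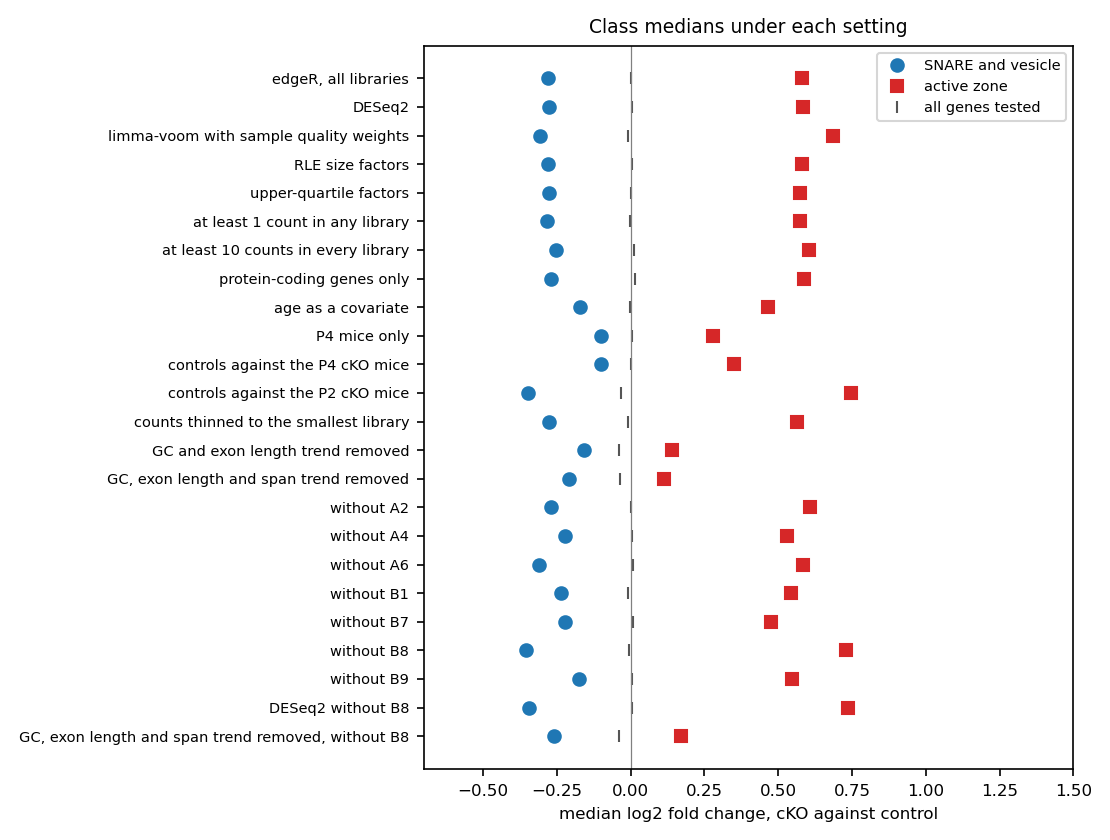
Median log2 fold change of the 25 SNARE and vesicle genes (circles), the 8 active zone genes (squares) and all genes tested (bars) under each setting. The active zone median stays to the right of the SNARE and vesicle median in every setting drawn, and the gap is narrowest where the GC, exon length and span trends were removed and in the P4 comparisons.

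A list of 48 other presynaptic genes, none of them among the 35, was read in the same way. With all libraries edgeR called 0 of the 48, and 19 had an unadjusted p under 0.05 (12 higher and 7 lower), against the 30.4% of all genes. Without B8, 19 rose and 13 fell, against 23.7% and 23.1% of all genes, so the share that fell was near the background. The median log2 fold change was -0.16 over the 21 genes under 50 kb and 0.45 over the 14 from 100 kb (-0.29 and 0.55 without B8). The lowest were *Syt3* (-0.56), a high-affinity synaptotagmin, *Sh3gl1* (-0.54), an endophilin, and *Cplx3* (-0.51), a complexin. The highest were *Syt10* (1.49), a synaptotagmin of peptide and growth factor secretion, *Stxbp5* (0.76), the SNARE-binding protein tomosyn, and *Ppfia1* (0.69), a liprin that binds RIM and ERC proteins. Without B8 all 6 passed in the same direction (edgeR adjusted p from 9.13e-05 to 0.0489). *Syt10* was low, at 0.498 to 0.749 CPM in controls and 0.788 to 2.53 CPM in cKO mice.

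Marker genes of neurons and other cells were read beside these results. Of 8 neuron markers, 7 had a log2 fold change below 0, and their summed level was 6709 to 7719 CPM in controls and 6126 to 6824 CPM in cKO mice. The exception was *Map2*, a gene of the dendritic cytoskeleton (267.3 kb), at 1045 to 1228 CPM in controls, 1082 CPM in B8 and 1986 to 2577 CPM in B1, B7 and B9. *Rbfox3* (421.8 kb), a longer gene for a neuronal splicing factor, was at -0.58 and fell without B8 (-0.80, edgeR adjusted p = 0.000349). Dorsal midbrain markers were present in every library (summed level 792 to 860 CPM in controls and 717 to 1243 CPM in cKO mice, 4 of 6 above 0), and hindbrain *Hox* markers were at or near 0 CPM. The 4 astrocyte and radial glia markers summed to 1732 to 2047 CPM in controls and 1144 to 1765 CPM in cKO mice, with 2 above and 2 below 0. Control A4 stood apart in red blood cell markers (451 CPM summed, against 52.6 to 161 CPM in the other libraries, all 4 below 0) and in cortex and hippocampus markers (25.0 CPM, against no more than 14.9 CPM in the other libraries, all 3 tested below 0). Oligodendrocyte lineage markers (280 to 324 CPM in controls and 244 to 334 CPM in cKO mice), microglia (67.4 to 75.3 and 63.7 to 73.1 CPM), endothelium (104 to 167 and 93.6 to 145 CPM), meninges (67.8 to 158 and 56.4 to 161 CPM), dividing cells (37.2 to 54.5 and 44.0 to 79.5 CPM) and choroid plexus (2.07 to 3.52 and 2.74 to 3.82 CPM) had ranges that overlapped between the genotypes. Without B8, edgeR called 10 of the 45 markers tested higher and 11 lower, in both directions within some lists. These shares were near those of all genes (23.7% higher and 23.1% lower). Red blood cell markers summed to 56.8 CPM in B7 and 52.6 CPM in B9. Of these, *Hba-a1* (-1.83) and *Hbb-bs* (-1.41) fell, and *Hbb-bt* (-1.40) and *Alas2* (-0.37) were below 0 without passing. Of astrocytes and radial glia, *Aqp4* (0.56) and *Slc1a3* (0.31) rose, *Fabp7* (-0.87) fell and *Aldh1l1* (-0.24) did not pass. Of the 8 neuron markers, 1 rose (*Map2*) and 4 fell (*Rbfox3*, *Tubb3*, *Stmn2* and *Elavl3*). Of the 6 dorsal midbrain markers, 4 rose and 0 fell. Of the oligodendrocyte lineage, *Pdgfra* rose (0.94) and *Olig1* (-0.86) and *Sox10* (-0.92) fell. Of endothelium, *Flt1* rose (0.44) and *Cldn5* fell (-1.24), and the other two markers were above 0 without passing. *Mki67* of dividing cells rose (1.02) and *Top2a* (0.33) was above 0 without passing, while *Ccnb1* (-0.90) and *Cdk1* (-0.76) were below 0 without passing. *Aif1* of microglia fell (-1.28) and *Csf1r* (-0.29) was below 0 without passing, while *Cx3cr1* (0.17) and *P2ry12* (0.42) were above 0 without passing. The part of cell composition in the results was not tested.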

How the data were processed

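Libraries of polyA RNA, strand-specific and paired-end, were sequenced from the dorsal midbrain of 7 mice, 3 of them controls and 4 cKO. The deposited values are raw counts per gene, which the authors made by trimming the reads, aligning them to GRCm38.p5 with TopHat2 and Bowtie2 and counting them with HTSeq on GENCODE vM15. The strand and overlap options of the counting are not given in the sources used here. Rows that name no gene (31.0% to 38.2% of all counted read pairs) were left out. Gene identifiers without their version number were matched to GENCODE vM21 on the same build (52489 of 52636), which supplied symbols, spans, exon lengths and GC content.

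The main comparison used edgeR 4.0.16 in R 4.3.3 on all 7 libraries, with filterByExpr (minimum count 10, minimum total 15), TMM factors, glmQLFit and glmQLFTest with genotype as the only term, and Benjamini-Hochberg adjustment over all genes tested. A gene was called at an adjusted p under 0.05. CPM were computed on TMM-scaled library sizes, with a prior count of 2 for log2 CPM. Standard errors of log2 fold changes were derived from the coefficient and the F statistic. Class medians are descriptions, with no test over genes. Short genes span under 50 kb and long genes 100 kb or more. The place of *Cplx2* in the short class and in the span correlations rests on its GENCODE span, and its RefSeq start was not tested there.

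The alternatives were DESeq2 1.42.0, voom with weights per sample (limma 3.58.1), other factors and filters, protein-coding genes only, age as a covariate, subsets by age, counts thinned to the smallest library, smooth trends per library on GC content, exon length and span removed as offsets (mgcv 1.9.3), and each library left out in turn. DESeq2 without B8 and the trend removal without B8 were added after the data were seen. The fits were also run on simulated counts with known changes, and the outcome is not reported here. Each mouse is 1 replicate. No library was a copy of another (chi-square per degree of freedom between mice of 1 genotype 7.96 to 255), and the counts of 328 and more per gene make counting error small beside the spread between mice.

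Levels in every library are given for 22 of the 35 genes: a fixed set named for their roles, those whose groups do not overlap, and the 3 highest and 3 lowest by log2 fold change. Of the 48 other presynaptic genes, the 3 highest and 3 lowest with a mean of at least 1 CPM are named. The genes, lists and classes were chosen with earlier results of these data known.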

Additional observations from a re-analysis of the deposited data

Results flagged for a closer look

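In 37 groups of 4 cKO libraries (the 35 genes and the 2 class medians), 2 held a library that lay far from the others by Dixon's criterion, where chance alone gives 1.9. Both were B8. *Bsn* was at 0.08 in B8 as log2 CPM minus the control mean, against 0.71 to 0.75 in B1, B7 and B9 (gap over range 0.946). *Syt7* was at -0.05 in B8 against 0.00 to 0.01 in the others (gap over range 0.915), a gap that is small in absolute terms. Without B8, *Bsn* rose (log2 fold change 0.72, edgeR adjusted p = 0.000169) and *Syt7* did not pass (edgeR adjusted p = 0.982).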

How the results depend on the processing

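No paired analysis was possible because the library names in the labels (A2, A4 and A6 against B1, B7, B8 and B9) share no number between genotypes, and the replicate numbers used to leave out libraries only name them. The edgeR count of 0 presynaptic genes called became 4 with DESeq2, where 7.41% of all genes were called higher and 3.04% lower. It became 27 with limma-voom (48.5% of all genes) and 27 in controls against the P2 cKO mice (46.9%). Without B8 after the GC, exon length and span trends were removed it was 13 (13.8% of all genes higher and 18.8% lower). As each library was left out it was 26 without B8 (23.7% of all genes higher and 23.1% lower) and 0 without any other. The SNARE and vesicle median (-0.28) kept its sign in every setting run. It was -0.10 in P4 mice only and -0.10 in controls against the P4 cKO mice. The active zone median (0.58) was positive in every setting run. It fell to 0.14 with the GC and exon length trend removed, 0.12 with span as well, and 0.17 with all 3 removed and B8 left out. The difference of 0.86 between the medians was above 0 in every setting run, from 0.70 to 1.08 as libraries were left out. It was 0.30 with the GC and exon length trend removed, 0.33 with span as well, 0.43 with all 3 removed and B8 left out, 0.38 in P4 mice only and 0.45 in controls against the P4 cKO mice.

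Single genes changed sign as follows (log2 fold change), and the cause was not tested. With the GC and exon length trend removed they were *Syt1* -0.14, *Syt2* -0.20, *Syt4* -0.10, *Cplx1* 0.01, *Syn2* -0.15, *Sv2b* -0.10, *Rab3c* -0.19, *Pclo* -0.0018, *Unc13b* -0.17, *Unc13c* -0.07 and *Amph* -0.03. With span removed as well they were *Syt1* -0.21, *Syt2* -0.27, *Syt4* -0.02, *Cplx1* 0.01, *Syn2* -0.24, *Sv2b* -0.18, *Sv2c* -0.04, *Rab3c* -0.24, *Sncb* 0.06, *Pclo* -0.02, *Unc13b* -0.19, *Unc13c* -0.13 and *Amph* -0.17. With these 3 removed and B8 left out they were *Syt1* -0.26, *Syt2* -0.40, *Syn2* -0.33, *Sv2b* -0.30, *Sv2c* -0.15, *Rab3c* -0.29, *Sncb* 0.10, *Unc13b* -0.23, *Unc13c* -0.15 and *Amph* -0.21. With limma-voom they were *Syt2* -0.10 and *Syt7* 0.0023, with DESeq2 without B8 *Syt2* -0.02 and *Syt7* 0.01, and in controls against the P2 cKO mice *Syt2* -0.33, *Syn2* -0.08 and *Amph* -0.02. With age as a covariate it was *Syt4* -0.04, in P4 mice only *Syt4* -0.08 and *Dnm1* 0.01, and in controls against the P4 cKO mice *Syt4* -0.11. With at least 10 counts in every library it was *Syt7* 0.02, and with protein-coding genes only *Syt7* 0.002. As each library was left out, the ranges that crossed 0 were *Syt2* -0.16 to 0.18, *Syt7* -0.04 to 0.0031, *Syn2* -0.03 to 0.12, *Synpr* -0.21 to 0.04 and *Amph* -0.03 to 0.06. No gene changed sign with RLE or upper-quartile factors, with the filter of at least 1 count, with thinned counts or with DESeq2 on all libraries.

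With counts thinned to the smallest library the class medians were -0.28 and 0.56. The limits are the 4 cKO mice, of which B8 lies with the controls and 2 are of an age that no control has.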
